A study of Mus musculus with 6 samples.

Results

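The ubiquitin-specific proteases (USPs) are the largest family of deubiquitinases, the enzymes that cut ubiquitin from proteins or take apart chains of it. Most are cysteine proteases, and each acts on its own set of targets: ubiquitinated histones, DNA repair proteins, p53 and its ligase Mdm2, endosomal receptors, or free ubiquitin chains. In embryonic stem cells they are known for trimming histone ubiquitin at developmental genes and for keeping short-lived regulators from the proteasome. Their genes were taken here as every probe set with exactly 1 platform gene symbol made of Usp, a number and optional letters, leaving out Usp18, Usp9y and the Usp17-like copies, with the probe set of highest mean over all arrays standing for a gene. This gave 48 genes from 51 probe sets, of 19308 named genes and 23344 probe sets in the table. The symbol rule also took in Usp6nl, whose product is a GTPase-activating protein for Rab proteins and not a protease, so 47 of the 48 are USPs.

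RNA was measured on 6 Affymetrix arrays of mouse pluripotent cells, with 3 arrays for induced pluripotent cells (iPS) and 3 for stem cells obtained through nuclear transfer into oocytes (ntES). Both kinds of cell were derived from tail-tip fibroblasts of G3 Terc-/- mice, which lack the RNA template of telomerase and, in late generations, have short telomeres, and both grew on mouse embryonic fibroblasts stopped with mitomycin C. All cells compared therefore lacked Terc, and no array of cells with Terc was used. The design text counts the arrays of a group as biological repeats of 1 cell line. If so, p-values cover only the spread within that line, and line and route of reprogramming cannot be told apart. The sources used here do not name the factors that made the iPS cells.

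The values were log2 expression values as deposited, and every difference below is ntES minus iPS on that scale, from limma fitted to all 23344 probe sets, with p-values adjusted by the method of Benjamini and Hochberg and called under 0.05. Array medians lay within 0.088 of each other, but the spread did not match: the SD over probe sets was 1.51 for ntES replicate 1 and 1.74 for ntES replicate 3, the extremes of the 6. This touched the USP genes, of which 38 lay at or above the median probe set (7.66). In 37 of these 38 genes ntES replicate 1 was the lowest ntES array, in 37 ntES replicate 3 was the highest, and in 36 iPS replicate 3 was the lowest iPS array, ties not counted. The part of this pattern in the differences was not tested. Of 10 pluripotency markers, all at or above the median probe set, 3 were lower in ntES cells (Esrrb at -0.79, Zfp42 at -0.49 and Klf4 at -0.47). That is 30%, beside 10.7% of named genes of that level. None passed as higher, though Dppa5a lay above the iPS arrays on every ntES array, at 0.34 (adjusted p = 0.0597, limma). The mean level of the 10 markers was 10.99 to 11.40 on ntES and 11.25 to 11.48 on iPS arrays, so these defining markers read far above the median probe set in both groups.

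Of the 48 genes, 6 were higher and 4 were lower in ntES cells. The higher genes were Usp33, Usp26, Usp13, Usp28, Usp46 and Usp29, and the lower ones Usp11, Usp5, Usp10 and Usp51. Only Usp11 differed by more than 2-fold among them. The share that passed, 20.8%, stood beside 11.4% of all named genes (5.25% higher and 6.16% lower). Among genes at or above the median level the background was 17.8%, and 6 of 38 USP genes passed there, or 15.8%, which is no more than the background. Among genes below that level it was 5.04%, and 4 of 10 USP genes passed, namely Usp13, Usp26, Usp29 and Usp51. Of these, Usp13 at a mean of 7.64 lay just under the cut of 7.66, and Usp29 kept its call in 5 of 15 settings. An unadjusted p under 0.05 was found for 20 of the 48 (41.7%), against 24.6% of all named genes. At or above the median level it was found for 15 of 38 (39.5%), against 34.8%.

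The family lay on both sides of 0. The median difference was 0.03, against 0.04 over all named genes, with 26 genes above 0 and 22 below. Over all named genes 11565 lay above 0 and 7743 below. The middle of the family, from the lower to the upper quartile, ran from -0.20 to 0.16, and the extremes were -1.21 for Usp11 and 0.86 for Usp33. The 3 ntES arrays lay above the 3 iPS arrays without overlap in 9 genes (18.8%, background 13.9%) and below them in 9 (18.8%, background 12.9%). Among genes at or above the median level these shares were 15.8% and 15.8% for the USP genes, against 15.8% and 19.8% of all named genes of that level, so there they were no larger than the background. In a mixed culture, fewer cells of a type and less RNA per cell cannot be told apart in such values.

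**Figure D1:**
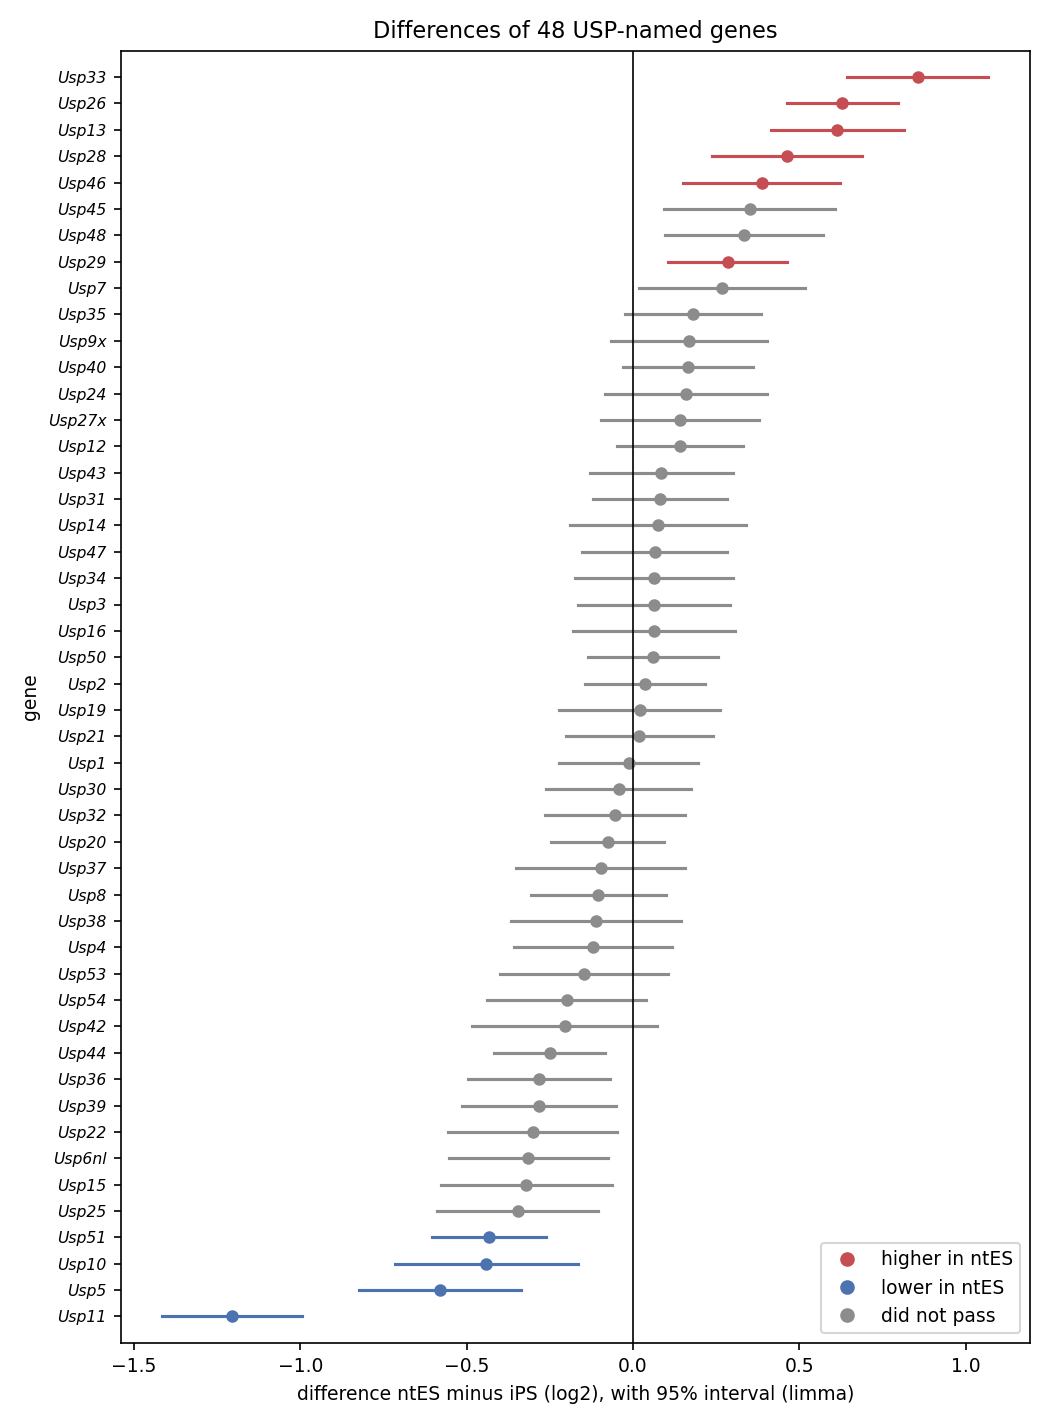
Difference between ntES and iPS cells (log2, x axis) for each of the 48 genes (y axis), with points at the limma estimate and bars at its 95% interval. The 6 genes in red passed as higher and the 4 in blue as lower, and the family is spread to both sides of 0 with Usp11 alone beyond -1.

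**Figure D2:**
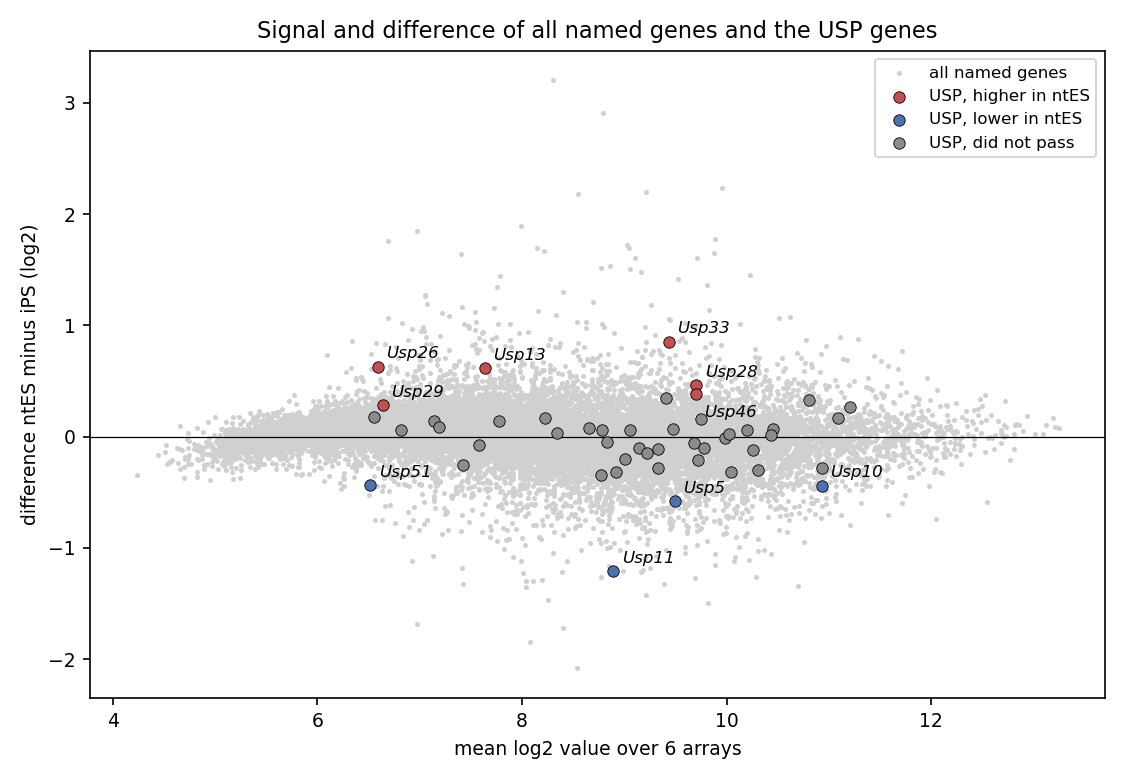
Mean log2 value over 6 arrays (x axis) against the difference ntES minus iPS (log2, y axis) for all 19308 named genes in grey and the USP genes in colour. Most USP genes lie at or above the median level of 7.66, and the called ones run from the dimmest, Usp51 at 6.52, to Usp10 at 10.93.

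Usp11, on the X chromosome, had the largest difference of the family. Its protein is a nuclear protease tied to repair by homologous recombination through BRCA2 and its partner PALB2. The iPS arrays read 9.56, 9.55 and 9.38 and the ntES arrays 8.23, 8.21 and 8.44. The groups were separated by a gap wider than the whole range within either group. Usp11 was 2.31-fold lower in ntES cells, at -1.21 ± 0.09 (log2, SE, n = 3 each; adjusted p = 5.2e-05, limma), and it passed in all 16 alternative settings, with differences from -1.28 to -1.16. The paralogs Usp15 and Usp4, which act in TGF-beta signalling and with the spliceosome, differed by -0.32 (adjusted p = 0.111) and -0.12 (0.527). Usp15 passed without ntES replicate 3 (0.0165) and after quantile normalization (0.00154). Over 706 named X-linked genes the median was 0.04, and 44 were higher (6.23%) and 31 lower (4.39%). Over all named genes the shares were 5.25% and 6.16%. Of 285 X-linked genes at or above the median level, 27 were higher (9.47%) and 24 lower (8.42%). Named genes of that level had 7.04% and 10.7%. The part of the chromosome in the Usp11 difference was not tested.

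The other member of this role with a lower level was Usp10, which returns ubiquitinated p53 to the nucleus and binds the stress granule proteins G3bp1 and G3bp2. It read 11.13, 11.27 and 11.05 on iPS and 10.45, 10.73 and 10.95 on ntES arrays. All ntES arrays were lower, by a margin that was narrow for ntES replicate 3. The difference was -0.44 ± 0.12 (adjusted p = 0.0458, limma). The call was lost without iPS replicate 1 (adjusted p = 0.152), iPS replicate 2 (0.211), iPS replicate 3 (0.0646), ntES replicate 1 (0.0773) or ntES replicate 2 (0.161), and by the unmoderated test (0.254).

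Usp28, which protects Myc from the ligase subunit Fbxw7 and takes part in p53 activation with 53BP1, was higher. The iPS arrays read 9.44, 9.55 and 9.43 and the ntES arrays 9.77, 9.90 and 10.14. The lowest ntES array stood above the highest iPS array. Usp28 differed by 0.46 ± 0.10, or 1.38-fold (adjusted p = 0.0162, limma), and did not pass without iPS replicate 1 (adjusted p = 0.0855), iPS replicate 2 (0.0561), iPS replicate 3 (0.0555) or ntES replicate 2 (0.0759), nor by the unmoderated test (0.139). Its paralog Usp25, an enzyme of endoplasmic reticulum quality control and cytokine signalling, lay on the other side, at 9.13, 8.93 and 8.79 on iPS and 8.45, 8.63 and 8.73 on ntES arrays. The 2 groups of Usp25 did not overlap, but its difference of -0.35 did not pass (adjusted p = 0.07). It passed without ntES replicate 3 (0.0297), after median centring (0.0443), without the 2 arrays of narrowest spread (0.042), with trend and robust priors (0.0163) and after quantile normalization (0.00613).

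The remaining genes of DNA damage and p53 control did not pass. Usp1, which with its cofactor Wdr48 strips ubiquitin from the repair proteins Fancd2 and PCNA, read 10.03, 10.05 and 9.88 on iPS and 9.83, 9.99 and 10.10 on ntES arrays. These ranges overlapped almost fully, and the difference of -0.01 had a 95% interval from -0.22 to 0.20 (adjusted p = 0.95). Usp7, the protease that stabilises Mdm2 and p53, read 11.10, 11.16 and 10.94 against 11.13, 11.35 and 11.54, at 0.27 (adjusted p = 0.172), and passed without ntES replicate 1 (0.0328) and after quantile normalization (0.000792). It had the highest probe set mean of the 48, which ranks signal and not RNA amount, since probe sets differ in their response. Usp45, an enzyme of nucleotide excision repair, and Usp48, which acts on histone H2A ubiquitin, had groups that did not overlap and differed by 0.35 and 0.33 (adjusted p = 0.0835 and 0.0763). Both passed without ntES replicate 1 (0.0119 for Usp45 and 0.0233 for Usp48). They also passed after quantile normalization (0.000299 and 0.000274) and without the 2 arrays of narrowest spread (0.0178 and 0.042). Usp45 passed with trend and robust priors too (0.0457). Usp47, which stabilises DNA polymerase beta, differed by 0.07 (adjusted p = 0.722).

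The enzymes of free ubiquitin chains gave opposite results for a pair of paralogs. Usp5, which dismantles unanchored chains so that ubiquitin is recycled, read 9.85, 9.83 and 9.68 on iPS and 8.99, 9.23 and 9.40 on ntES arrays. Usp13, its closest relative, which binds such chains but cuts them poorly and acts on proteins of endoplasmic reticulum quality control, read 7.35, 7.30 and 7.33 on iPS and 7.81, 7.93 and 8.10 on ntES arrays. Usp5 was lower on every ntES array and Usp13 higher on every ntES array. The differences were -0.58 ± 0.11 for Usp5 (adjusted p = 0.00746, limma) and 0.61 ± 0.09 for Usp13 (adjusted p = 0.002, limma). Their 95% intervals, from -0.82 to -0.34 and from 0.41 to 0.82, lay on opposite sides of 0. Usp5 did not pass without iPS replicate 1 (adjusted p = 0.0529) or iPS replicate 2 (0.0502), nor by an unmoderated test (0.118). Usp13 passed in all 6 fits that left out 1 array, and it missed the threshold by the unmoderated test (0.0547). Usp14, which sits on the proteasome and edits chains there, read 10.48, 10.48 and 10.30 against 10.26, 10.48 and 10.74, a difference of 0.07 with an interval from -0.19 to 0.34 (adjusted p = 0.744).

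**Figure D3:**
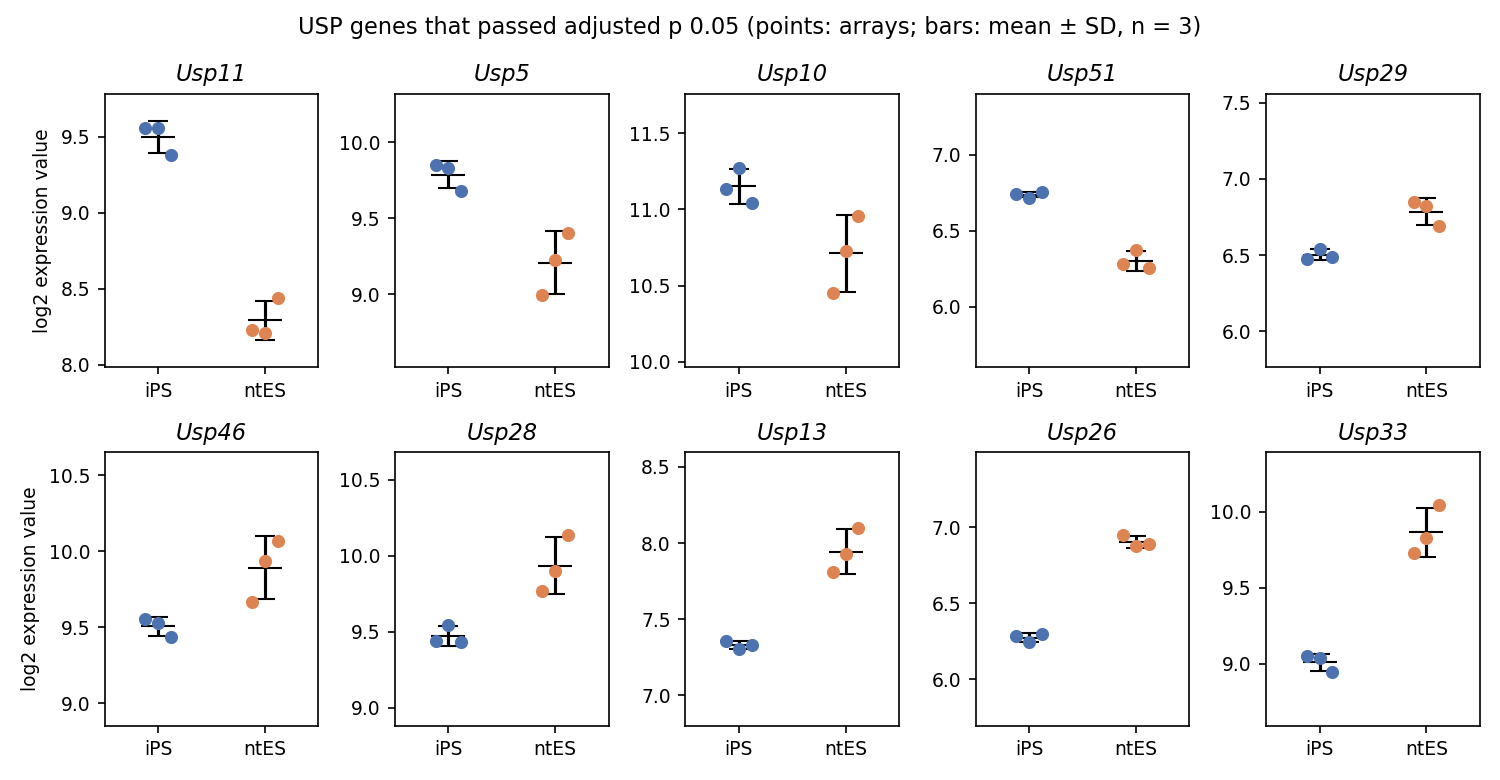
Log2 expression value (y axis, each panel spanning the same height) of the 10 USP genes that passed, for 3 iPS and 3 ntES arrays; points are arrays and bars are mean ± SD. In every panel the arrays of the groups do not overlap, and the gap is widest for Usp11.

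Usp33 had the largest difference upward. It encodes a deubiquitinase bound by the von Hippel-Lindau protein that acts on membrane receptors and beta-arrestin. The iPS arrays read 9.05, 9.04 and 8.94 and the ntES arrays 9.73, 9.83 and 10.04. The groups were far apart for their spread. The difference was 0.86 ± 0.10, or 1.81-fold (adjusted p = 0.000422, limma), and it passed in all 16 alternative settings, from 0.77 to 0.92. The paralog Usp20 read 7.64, 7.66 and 7.55 on iPS and 7.55, 7.54 and 7.54 on ntES arrays, a difference of -0.08 with an interval from -0.25 to 0.09 that lies wholly below the 0.64 to 1.07 of Usp33. Differences between paralogs were not tested. The other genes of trafficking and the endoplasmic reticulum did not pass: Usp8, which trims receptors at the endosome, differed by -0.10, the membrane-anchored Usp19 by 0.02 and Usp50, a relative of Usp8, by 0.06.

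Of 9 genes grouped here by their work on chromatin, with Usp7 among them and Usp48 counted under DNA damage, 1 was lower and none higher, which is near the background of 11.4%. This was Usp51, an X-linked protease that removes ubiquitin from histone H2A at damage sites and from H2B with the cofactors of the SAGA complex. The iPS arrays read 6.74, 6.72 and 6.75 and the ntES arrays 6.28, 6.38 and 6.25. Both groups were tight and well apart, at the lowest probe set mean of the family (6.52). Without detection calls it is not known how far this signal stands above background. The difference was -0.43 ± 0.08 (adjusted p = 0.00547, limma), and it passed in all 15 settings that kept it. Usp22 and Usp27x, which use the same SAGA cofactors, differed by -0.30 (adjusted p = 0.13) and 0.14 (0.457). Usp22 read 10.55, 10.51 and 10.31 on iPS and 9.95, 10.15 and 10.37 on ntES arrays, and only ntES replicate 3 reached into the iPS range. Usp22 passed without ntES replicate 3 (0.0211) and after quantile normalization (0.00197). The cofactors Atxn7l3, Eny2 and Atxn7 differed by -0.25, -0.19 and 0.08 and none of them passed.

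Usp44, which removes ubiquitin from H2B and is known to fall when embryonic stem cells differentiate, came closest to the threshold of the genes that missed it. It read 7.60, 7.55 and 7.51 on iPS and 7.27, 7.31 and 7.32 on ntES arrays. The groups did not overlap, and the difference of -0.25 ± 0.08 had an adjusted p of 0.0601 (limma). Usp44 passed after median centring (0.0271), by the unmoderated test (0.0415), without ntES replicate 3 (0.0336), with trend and robust priors (0.0205) and after quantile normalization (0.00256). The H2A proteases Usp16, Usp21 and Usp3, of which Usp21 is also known to stabilise Nanog, differed by 0.06, 0.02 and 0.06. For Usp16, with iPS arrays at 9.14, 9.11 and 8.84 and ntES arrays at 8.94, 9.08 and 9.25, the interval ran from -0.18 to 0.31. For Usp21, at 10.51, 10.46 and 10.32 against 10.28, 10.46 and 10.60, it ran from -0.20 to 0.24. Both genes read alike on overlapping arrays. The nucleolar Usp36 differed by -0.28 (adjusted p = 0.092) and passed without ntES replicate 3 (0.0223) and after quantile normalization (0.00254).

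Usp46 and Usp12 are close copies that need the WD-repeat proteins Wdr48 and Wdr20 for activity. Usp46 read 9.55, 9.53 and 9.44 on iPS and 9.67, 9.94 and 10.07 on ntES arrays, with ntES replicate 1 just above the iPS range. It differed by 0.39 ± 0.11 (adjusted p = 0.0425, limma). That call was lost after median centring (0.083), with the replicate number as a block (0.055), by the unmoderated test (0.215), and without iPS replicate 1 (0.125), iPS replicate 2 (0.143), iPS replicate 3 (0.122), ntES replicate 2 (0.189) or ntES replicate 3 (0.0525). Usp12 differed by 0.14 (adjusted p = 0.349), with an interval from -0.05 to 0.33 that overlaps the 0.15 to 0.62 of Usp46. Of the cofactors, Wdr20 was lower, from 9.26, 9.31 and 9.10 on iPS to 8.53, 8.76 and 8.94 on ntES arrays, at -0.47 (adjusted p = 0.0217). Its relative Dmwd was lower as well, at -0.32 (adjusted p = 0.0396), while Wdr48 differed by -0.05 (adjusted p = 0.825). At the RNA level Usp46 thus read higher and Wdr20, 1 of its activators, lower, and the protein complex was not measured.

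Usp26 and its relative Usp29 were both higher in ntES cells. Usp26 is an X-linked gene of male germ cells, and Usp29 is an imprinted gene expressed from the paternal chromosome beside Peg3. Usp26 read 6.28, 6.24 and 6.30 on iPS and 6.95, 6.88 and 6.89 on ntES arrays. The spread within each group was small against the gap. Its difference was 0.63 ± 0.08, or 1.55-fold (adjusted p = 0.000618, limma), and it passed in all 15 settings that kept it. Usp29 read 6.48, 6.54 and 6.49 on iPS and 6.85, 6.82 and 6.69 on ntES arrays. Its difference was 0.28 ± 0.08 (adjusted p = 0.0474, limma). Both probe sets read below the median of 7.66, and the files hold no detection call, so that it is not known how far these signals stand above background. Of the 9625 named genes below that median, 3.45% passed as higher and 1.59% as lower, and 7066 lay above 0. The call of Usp29 was lost after median centring (0.0995), with the replicate number as a block (0.221), by the unmoderated test (0.0884), without the 2 arrays of narrowest spread (0.137), and without iPS replicate 1 (0.183), iPS replicate 2 (0.151), iPS replicate 3 (0.122), ntES replicate 1 (0.0829) or ntES replicate 2 (0.227). Usp37, the relative of both genes that acts on cyclin A, differed by -0.10 (adjusted p = 0.641).

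The upstream sequences show how differently these genes are built. RefSeq's promoter table for GRCm38.p6 held 37 of the 48 genes, and the 250 bases before each start are set out here for genes with called differences whose promoters contrast; Usp5 and Usp33 were not matched. Capitals mark CCAAT boxes, CCAAT on either strand (read as ATTGG on the other). The windows are Usp11 at chrX:20703659-20703908 (plus strand), Usp13 at chr3:32817376-32817625 (plus strand), Usp28 at chr9:48985135-48985384 (plus strand) and Usp26 at chrX:51801234-51801483 (minus strand). The last sequence is the stretch between the divergent starts of Usp29 and Peg3, which lie 164 bases apart, at chr7:6730420-6730582 (plus strand).
Usp11: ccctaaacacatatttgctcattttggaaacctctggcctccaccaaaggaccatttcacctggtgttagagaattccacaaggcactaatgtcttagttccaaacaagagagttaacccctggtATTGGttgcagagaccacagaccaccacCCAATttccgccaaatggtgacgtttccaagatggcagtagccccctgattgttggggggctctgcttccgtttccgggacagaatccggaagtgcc
Usp13: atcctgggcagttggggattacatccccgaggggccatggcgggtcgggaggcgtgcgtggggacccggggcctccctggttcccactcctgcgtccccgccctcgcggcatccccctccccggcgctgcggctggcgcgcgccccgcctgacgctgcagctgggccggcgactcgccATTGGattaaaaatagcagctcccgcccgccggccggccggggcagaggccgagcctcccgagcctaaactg
Usp28: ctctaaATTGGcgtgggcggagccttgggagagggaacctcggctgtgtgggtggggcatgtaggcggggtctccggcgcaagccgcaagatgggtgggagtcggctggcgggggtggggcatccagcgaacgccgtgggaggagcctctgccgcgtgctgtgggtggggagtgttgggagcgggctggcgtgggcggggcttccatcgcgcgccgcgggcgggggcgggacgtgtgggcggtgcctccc
Usp26: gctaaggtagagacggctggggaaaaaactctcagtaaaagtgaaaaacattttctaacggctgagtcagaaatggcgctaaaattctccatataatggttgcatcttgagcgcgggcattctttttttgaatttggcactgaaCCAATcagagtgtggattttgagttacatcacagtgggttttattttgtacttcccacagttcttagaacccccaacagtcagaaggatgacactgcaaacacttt
Usp29 and Peg3: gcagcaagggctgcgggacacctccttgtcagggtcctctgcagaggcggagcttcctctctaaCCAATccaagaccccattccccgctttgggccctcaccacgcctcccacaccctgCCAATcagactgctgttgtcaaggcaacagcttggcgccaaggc

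Usp13 and Usp28 start in CpG-rich sequence, with 28 and 26 CG pairs in these windows, whereas Usp26 and Usp11 have 5 each. The median was 24 over the 38 USP windows and 6 over all 32851 windows of the table. The GC box GGGCGG, on either strand, stood in 27 of 38 USP windows (71.1%) and in 32.7% of all windows. A CCAAT box stood in 4 of the 5 windows of genes higher in ntES cells (Usp13, Usp26, Usp28 and Usp29, not Usp46), in 1 of 3 windows of genes lower there (Usp11), in 2 of 30 windows of genes that did not pass, and in 33.8% of all windows. The motif CCGGAAG of ETS factors was in 18.4% of USP windows and 6.91% of all, and the TATA box TATAAA in 5.26% and 12.4%. These are matches of letters and were not tested. Peg3, which starts from the stretch shared with Usp29, read 10.26, 10.25 and 10.07 on iPS and 10.30, 10.53 and 10.72 on ntES arrays. Peg3 was higher on all ntES arrays like Usp29, at 0.32, but did not pass (adjusted p = 0.0994). Zim1, on the far side of Peg3 from Usp29, was also higher on all ntES arrays, at 0.24, and did not pass (adjusted p = 0.0848, limma).

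None of the genes in the remaining roles passed. The 7 genes of splicing and growth signalling ranged from -0.32 for Usp15 to 0.17 for Usp9x. Usp39, a spliceosome protein with the fold of a USP but no known protease activity, read 11.15, 11.17 and 10.92 on iPS and 10.66, 10.76 and 10.96 on ntES arrays. Only ntES replicate 3 overlapped the iPS range, and the difference was -0.28 (adjusted p = 0.118), passing without ntES replicate 3 (0.0256) and after quantile normalization (0.00338). Usp9x, an X-linked protease that stabilises Mcl1 among many targets, read 11.06, 11.07 and 10.88 against 10.98, 11.18 and 11.35, at 0.17 with an interval from -0.07 to 0.40. It passed after quantile normalization (0.00635). Usp24, its nearest relative, differed by 0.16 and passed after quantile normalization (0.00578). A dimmer probe set of Usp24 read -0.34 (adjusted p = 0.0677), so the 2 probe sets disagree in sign. The same holds for Usp54, at -0.20, which passed without ntES replicate 3 (0.0446) and after quantile normalization (0.0446), and 0.15 for its dimmer probe set, while both probe sets of Usp31 lay above 0, at 0.08 and 0.16. Usp30, which sits in the outer mitochondrial membrane and opposes parkin in mitophagy, read 8.97, 8.87 and 8.74 against 8.66, 8.84 and 8.94, a difference of -0.04 with an interval from -0.26 to 0.17. Usp35, also linked to mitophagy, differed by 0.18 (adjusted p = 0.265). Usp6nl, the Rab regulator taken in by its name, differed by -0.32 (adjusted p = 0.0943) and passed without ntES replicate 3 (0.0106), with trend and robust priors (0.0389) and after quantile normalization (0.00603).

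Some called genes lay among neighbours that differed in the same direction. For each gene, up to 20 measured neighbours on either side in the order of the GRCm38.p6 gene table were taken, from genes at or above the median level. Around Usp33, which lies near the end of its chromosome, all 32 neighbours from Gtf2b to Wls were above 0, 20 of them passed as higher, and their median was 0.45. Around Usp5, between A2m and Ndufa9, 32 of 40 neighbours were below 0, 20 passed as lower and 3 as higher, and the median was -0.33. Around Usp10, between Adat1 and Rnf166, 31 of 40 were below 0, 13 passed as lower and 2 as higher, and the median was -0.26. Over all 9674 placed genes of that level the median was -0.02. Usp33, Usp5 and Usp10 thus each moved in the direction of their neighbours, and by more than the neighbours' median. The other 45 genes had neighbour medians between -0.18 and 0.09. Among them, Usp11, Usp26 and Usp13 had neighbour medians of -0.05, 0.05 and 0.06, near 0 beside their own differences. The part of the neighbourhood in these results was not tested.

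**Figure D4:**
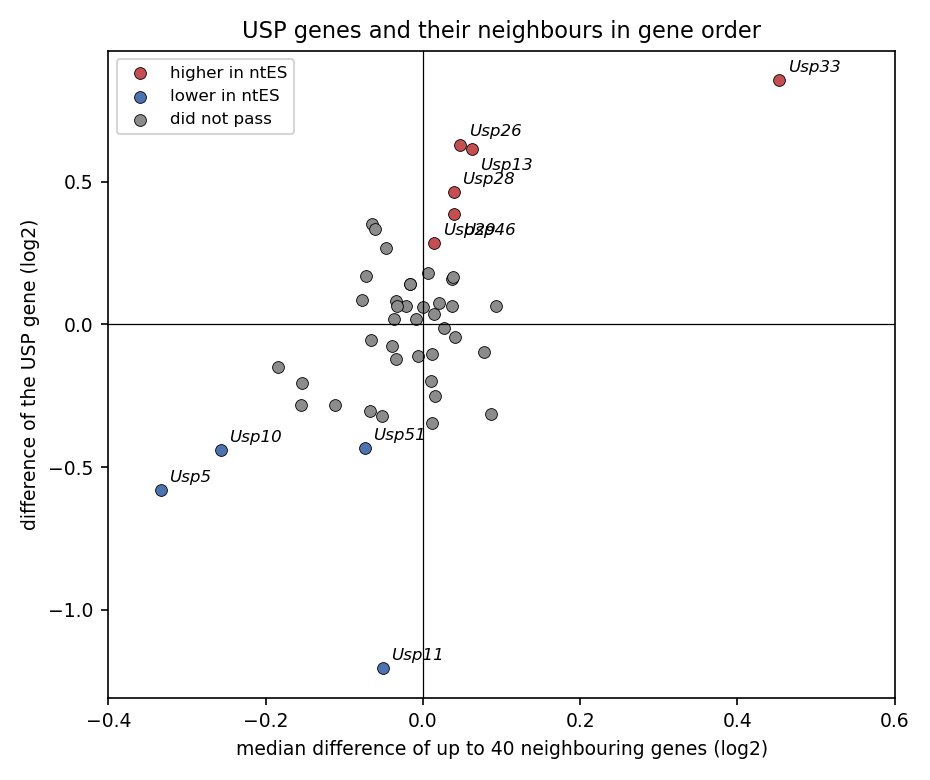
Median difference of up to 40 neighbouring genes in gene order (log2, x axis) against the difference of the USP gene itself (log2, y axis), 1 point for each of 48 genes. Usp33 at the upper right and Usp5 and Usp10 at the lower left have neighbours shifted to the same side, while Usp11, Usp13 and Usp26 have neighbours near 0.

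The other deubiquitinases and the ubiquitin system were read from lists of known members. Of 40 measured deubiquitinases outside the numbered USPs, 2 were higher and 4 lower, or 15% in all, against 11.4% of all named genes and 17.8% of those at or above the median level, where 35 of the 40 lay. In the family of ubiquitin C-terminal hydrolases all 4 members lay below 0, and 2 of them passed. All 4 were at or above the median level, where 5184 of 9683 named genes lay below 0. Uchl1, the abundant hydrolase of neurons and germ cells, read 9.52, 9.52 and 9.42 on iPS and 8.48, 8.68 and 9.08 on ntES arrays, at -0.74 (adjusted p = 0.0062). Uchl3 was at -0.66 (adjusted p = 0.0035). Bap1 at -0.12 and Uchl5 at -0.05 had overlapping groups and did not pass. Among 15 proteases of the OTU family, 1 was lower, Otub2 at -0.71, and none higher. Of 8 in the Josephin, MINDY and ZUFSP families, the polyglutamine protein Atxn3 was lower at -0.83 (adjusted p = 0.001), and Josd1 and Mindy1 were higher at 0.39 and 0.38. None of 10 JAMM metalloproteases passed, the smallest adjusted p being that of Mpnd at -0.24 (0.0664), followed by Mysm1 at -0.32 (0.119), and none of 3 USP-fold genes with other names, with Uspl1 at 0.10 and Cyld at -0.05.

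Of 14 measured partners of USPs, all at or above the median level, Wdr20 and Dmwd were lower and none was higher, a share of 14.3% beside the 17.8% of named genes of that level. None of 11 substrates passed, and those with the smallest p were Mdm2, the p53 ligase that Usp7 protects, at 0.31 (adjusted p = 0.111) and Fanci, a Fanconi target of Usp1, at 0.24 (0.229). Only Uba6 of the 6 listed ubiquitin and activating enzyme genes was analysed here, at 0.15 (adjusted p = 0.472). Of 29 conjugating enzymes, Ube2j2, of endoplasmic reticulum quality control, was higher at 0.39, and Ube2e2 and Ube2e3 were lower at -0.37 and -0.31. Over all these lists 3 of 95 genes were higher and 8 lower, 11.6% in all, against 11.4% of all named genes and 17.8% of those at or above the median level, where 89 of the 95 lay. Their median difference was -0.05.

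Genes that mark other cell types also differed between the groups. The shares that passed were 53.3% for fibroblast and feeder, 50% for endoderm, 66.7% for trophectoderm, 25% for neural and 40% for immune markers. They stood beside 11.4% of all named genes and 17.8% of those at or above the median level. The lists are short, with 4 to 15 genes each. Among 15 markers of fibroblasts and feeder cells, 7 were higher in ntES cells and 1, Thy1, lower, with a mean level of 10.44 to 10.77 on ntES and 10.14 to 10.47 on iPS arrays, and 14 lay above 0. Timp3, Ccn2, Postn and Ccn1 were higher by 0.89, 0.77, 0.74 and 0.63. Of 6 endoderm markers 3 were higher, Gata6 at 0.32, Gata4 at 0.31 and Foxa2 at 0.28, with a mean level of 7.79 to 7.88 against 7.69 to 7.72. The others did not pass, with Sox17 at 0.36 and, on the other side of 0, Sox7 at -0.28 and Dab2 at -0.19. Of 6 trophectoderm markers Krt18 and Krt8 were higher, at 1.69 and 1.60, and Eomes and Tfap2c lower, at -1.11 and -0.92. Elf5 at 0.05 and Cdx2 at 0.0005 did not pass. Of 4 neural markers Tubb3 was lower, at -0.66, while Pax6 at -0.26, Nes at -0.06 and Sox1 at 0.15 did not pass. Of 5 immune markers Lyz2 and Cd3e were higher, at 1.19 and 0.50. Adgre1 at 0.21, Ptprc at 0.17 and Itgam at -0.05 did not pass. No marker value was at 0 on this log2 scale, on which background signal also counts. The part of these cells in the USP differences was not tested.

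**Figure D5:**
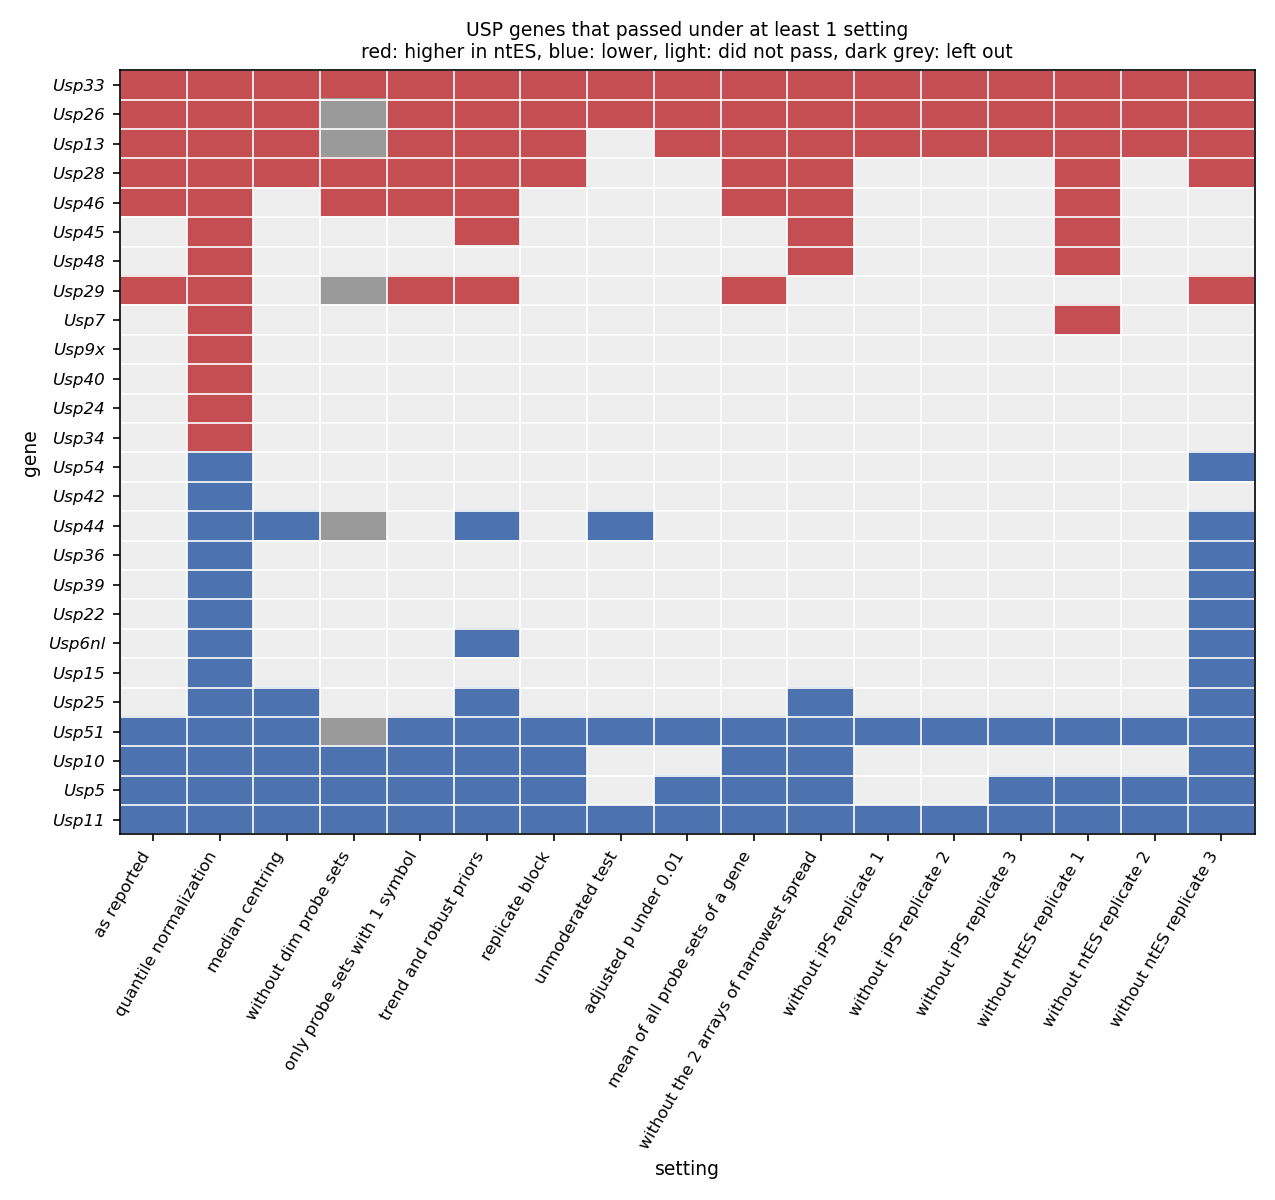
The 26 USP genes (rows) that passed under at least 1 way of processing (columns), with red for higher and blue for lower in ntES cells, light cells where a gene did not pass and dark grey where its probe set was left out. Usp33, Usp26, Usp51 and Usp11 keep their colour in every column that holds them, while quantile normalization adds 16 genes to the 10.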

How the data were processed

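RNA from 3 iPS and 3 ntES samples was read on Affymetrix arrays with GCOS 1.4, per the submitters' processing notes. Per the labels' protocols RNA was taken with Trizol and labelled with a WT Terminal Labeling Kit. The deposited table held log2 values, a scale inferred from the values; the authors' background correction, normalization and summary method, and the genome build, were not given in the sources used here. Fits used limma 3.58.1 (lmFit, eBayes) in R 4.3.3 without covariates, and Python 3.11.15 for figures. Of the probe sets, 20746 had 1 symbol, 1183 several and 1415 were not listed. The number of arrays limits the precision. The script was tested on simulated data.

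The members, gene lists and tests were chosen with earlier results of these data known. Values are given for every called gene, the 4 uncalled with the smallest p, 13 fixed genes, and the brightest and dimmest probe sets; in other lists for up to 4 called genes, or the 2 of smallest p. Further genes were named by role, paralog or cofactor after their values were seen. Neighbours and the fit without the 2 narrowest arrays were added after seeing the data. Protein sequences were not used here.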

Additional observations from a re-analysis of the deposited data

How the results depend on the processing

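Usp11 and Usp33 kept their direction and their call in 16 of 16 alternative settings, and Usp26 and Usp51 in 15 of 15. None of the 10 called USP genes changed sign in any setting run. The family's median stayed between -0.05 and 0.08. Quantile normalization raised the counts to 13 higher and 13 lower USP genes, all 10 of the reported ones among them, 43 genes of the other ubiquitin lists and 7035 probe sets (from 6, 4, 11 and 2643). Priors with a trend gave 7 lower. Without dim probe sets 3 were higher, since 10 members were left out. The unmoderated test gave 2 higher, 1 in the other lists and 703 probe sets. At an adjusted p of 0.01 there were 3 higher, 4 in the other lists and 1150 probe sets. Leaving out 1 array at a time gave 3 to 8 higher, 2 to 12 lower, 4 to 22 in the other lists and 1014 to 5044 probe sets, with the highest count of lower USP genes without ntES replicate 3 and of higher ones without ntES replicate 1. Median centring turned 6 higher and 4 lower USP genes into 4 and 6, and the share of higher calls over all probe sets from 45.9% to 30.1%. Same-numbered arrays deviated from their group means with correlations of -0.43, -0.10 and -0.72. These values cannot decide whether the numbers pair samples, because the deviations also followed signal level. Their correlations with level were 0.41, 0.47 and -0.67 for the iPS arrays, in order of number. For the ntES arrays they were -0.77, -0.20 and 0.78, opposite in sign for each number. The main fit did not use the numbers, and pairing was left undecided. With the replicate block there were 4 higher and 4 lower USP genes, with Usp29 and Usp46 lost, 7 genes in the other lists and 1983 probe sets. Array weights could not be fitted, since their estimate did not converge. The files hold 3 arrays a group and no detection calls, so signal over background is not known.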

Other observations

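Equal values on 2 or more arrays, to 6 decimals, occurred in 5 of the 48 USP genes (Usp14, Usp2, Usp20, Usp27x and Usp35), or 10.4%, and in 4676 of 23344 probe sets, or 20%. Usp14 had the same value on 3 arrays, iPS replicates 1 and 2 and ntES replicate 2.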
